A study of Mus musculus with 22 samples.

Results

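The genes described here are 10 endoplasmic reticulum chaperones and oxidoreductases: Hspa5, Hsp90b1, Calr, Canx, Pdia3, Pdia4, Pdia6, Dnajc3, Ero1b and Creld2. They were found by gene symbol in the array's annotation and kept where a probe had a detection p under 0.05 on at least 3 of 22 arrays. The array carries 11 probes for them, of 25697 in all, and 10 probes of 9 genes passed. These 9 were among 9345 genes tested out of 16593 with a symbol. RNA of mouse blastocysts at embryonic day 3.5 was hybridised to Illumina bead arrays. The CD1 groups, of the strain labelled CD1, comprised embryos in KSOM (1 array), in HTF (3 arrays) and in ISM1 (3 arrays), and embryos grown in vivo (3 arrays). The B6 groups comprised embryos in KSOM, in HTF and in ISM1 and embryos grown in vivo, with 3 arrays each. KSOM and HTF are embryo culture media, and the composition of ISM1 is not given in the sources used here. The labels call the replicates biological and do not give the number of embryos behind an array, the time of transfer to culture or any drug or mutation.

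Proteins that enter the secretory pathway fold in the endoplasmic reticulum. Hspa5 (BiP) is its Hsp70 chaperone, Dnajc3 (P58IPK) a J-domain co-chaperone of BiP, and Hsp90b1 (Grp94) its Hsp90 chaperone. Calr and Canx are lectin chaperones that hold newly made glycoproteins, and Pdia3 (ERp57) is the disulfide isomerase that works with them. Pdia4 and Pdia6 are further disulfide isomerases, Ero1b is an oxidase that regenerates oxidised isomerases, and Creld2 is a secretory-pathway protein induced by endoplasmic reticulum stress. When unfolded proteins accumulate, sensors in the membrane start the unfolded protein response. Its factors Xbp1 and Atf6 act on promoters that carry the endoplasmic reticulum stress element, ERSE. In the blastocyst, the trophectoderm is the transporting epithelium around the inner cell mass. The secretory primitive endoderm arises within that mass, beside the pluripotent cells.

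The promoters of all 10 genes were read from RefSeq, build GRCm38.p6, as windows of 250 bases before to 50 bases after each annotated start. The response described above acts on such genes, so matches among them are a description and carry no test. The motif searched was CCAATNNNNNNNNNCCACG on both strands. It occurred in 39 of 32851 windows (0.119%) and in the windows of 8 of the 10 genes. Hsp90b1 had 2 matches, and Pdia3 and Pdia4 had none in these windows. The shorter ERSE-II (ATTGG and CCACG, 1 base apart) was in 0.0365% of windows and in none of the 10. The core of another response element, TGACGTGG, was in 0.676% of windows and also in none of them.

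The matches are printed because they are the sequence that most of these genes share. Each line gives 39 bases, 5′ to 3′ on the strand that reads CCAAT first, with the motif in capitals. The Hspa5 match is at chr2:34772015-34772053 on the plus strand. The 2 of Hsp90b1 are at chr10:86705628-86705666 on the minus strand and chr10:86705523-86705561 on the plus strand. The Calr match is at chr8:84847065-84847103 on the plus strand and the Canx match at chr11:50325790-50325828 on the minus strand. Pdia6 has it at chr12:17266481-17266519 and Dnajc3 at chr14:118937817-118937855, both on the plus strand. Ero1b has it at chr13:12565672-12565710 and Creld2 at chr15:88819510-88819548, both on the minus strand.
Hspa5: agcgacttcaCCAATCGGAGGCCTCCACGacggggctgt
Hsp90b1, first: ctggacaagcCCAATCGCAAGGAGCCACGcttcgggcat
Hsp90b1, second: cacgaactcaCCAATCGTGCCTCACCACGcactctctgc
Calr: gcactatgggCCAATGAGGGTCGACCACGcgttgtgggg
Canx: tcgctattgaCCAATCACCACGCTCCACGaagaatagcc
Pdia6: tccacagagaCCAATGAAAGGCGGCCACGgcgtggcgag
Dnajc3: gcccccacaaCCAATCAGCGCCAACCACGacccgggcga
Ero1b: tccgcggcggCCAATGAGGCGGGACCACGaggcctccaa
Creld2: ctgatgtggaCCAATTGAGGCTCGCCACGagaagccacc
The 9 spacers differ in sequence, and 6 or 7 of their 9 bases were G or C. Of the 9 matches, 5 read in the direction of their gene and 4 against it, and the match nearest to a start is that of Hspa5, whose motif ends 47 bases before it.

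The 250 bases before the Hspa5 start, at chr2:34771840-34772089 on the plus strand, are given as the longest of these contexts. Capitals mark each CCAAT box, the same box on the other strand (ATTGG) and the ERSE.
Hspa5 upstream: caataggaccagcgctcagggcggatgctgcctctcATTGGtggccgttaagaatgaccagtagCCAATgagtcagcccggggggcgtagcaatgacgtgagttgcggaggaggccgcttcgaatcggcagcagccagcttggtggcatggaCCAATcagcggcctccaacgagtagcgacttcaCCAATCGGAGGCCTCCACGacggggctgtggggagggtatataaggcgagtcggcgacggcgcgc
The window holds 3 CCAAT boxes on the gene's strand, the last of them inside the ERSE, and 1 on the other strand.

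Between 8964 and 11147 probes were detected on each array. Replicates correlated least in CD1 in vivo (mean r = 0.861 over the kept probes) and most in B6 HTF (0.969). All 7 trophectoderm markers, 4 of 5 inner cell mass markers and 4 of 5 primitive endoderm markers were measured. No cumulus cell marker passed the filter (0 of 5). Of blood markers only Hba-a1 did, detected on 3 arrays, and of reproductive tract markers only Muc1 and Ovgp1. Levels below are normalized intensities on the log2 scale, comparable for 1 probe between arrays. In such bulk RNA, fewer cells of a type and less RNA per cell cannot be told apart.

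Canx could not be described. Its only probe had a detection p of at least 0.16 and was detected on 0 of 22 arrays, with levels of 4.52 to 5.06. The other lectin chaperone, Calr, and Pdia4 were detected on 21 arrays and Ero1b on 11. Hspa5, Hsp90b1, Pdia3, Pdia6, Dnajc3 and both Creld2 probes were detected on all 22.

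**Figure D1:**
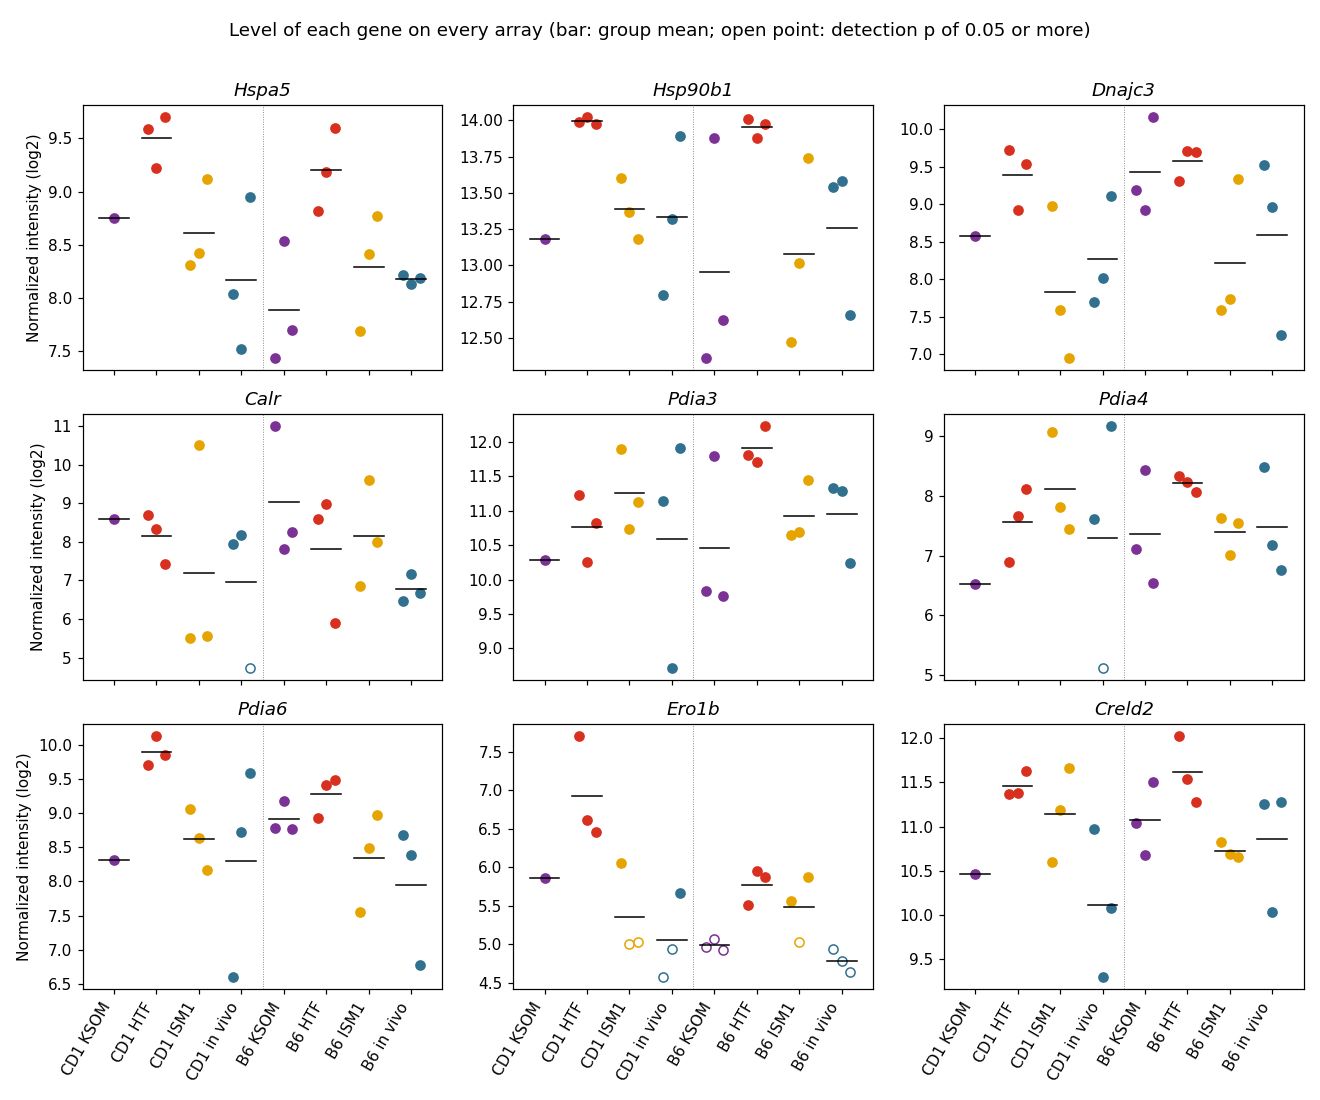
Level of each of the 9 measured genes (y axis, normalized intensity, log2, with a scale of its own in each panel) on every array, by strain and medium (x axis); points are arrays, open where detection p was 0.05 or more, and bars are group means. For Hspa5, Hsp90b1 and Pdia6 the HTF points of each strain lie above all in vivo points of that strain, while Calr spreads over more than 6 log2 units.

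HTF was set against growth in vivo first. Averaged over the strains, all 9 genes had higher values in HTF, with a median difference of 1.06 on the log2 scale, beside a median of 0.01 over all genes tested. Ero1b alone passed the test (limma, adjusted p = 0.0282), 1 of 9, where 0.118% of all genes were called higher and 0.0856% lower. An unadjusted p under 0.05 was reached by 6 of the 9 and by 8.25% of all genes. In 4 of the 9, Hspa5, Hsp90b1, Pdia6 and Ero1b, every HTF array lay above every in vivo array within both strains, against 1.12% of all genes higher and 0.717% lower. Each HTF array had 7 to 9 of the 9 genes above their own medians over the 22 arrays, whereas the in vivo arrays had 1 to 7.

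Ero1b, the oxidase, read 7.71, 6.61 and 6.45 in CD1 HTF and 5.51, 5.95 and 5.87 in B6 HTF. It read 4.57, 4.94 and 5.66 in CD1 in vivo and 4.94, 4.78 and 4.63 in B6 in vivo. It was detected on all 6 HTF arrays, on 1 of 3 CD1 in vivo arrays and on none of the 3 B6 in vivo arrays. The difference averaged over strains was 1.43 (SE 0.26), from means of 6.35 in HTF and 4.92 in vivo. With each undetected in vivo array set to the lowest signal detected on it, the HTF mean was at least 1.77-fold higher. Such a bound concerns the means of these arrays and holds no sampling error. The measured difference was 1.87 (SE 0.37) in CD1, at least 2.35-fold with the same floors. In B6 it was 0.99 (SE 0.37, 95% interval 0.21 to 1.77), at least 1.34-fold with them. Neither passed within its strain (adjusted p = 0.208 and 0.999), and the difference between the strains, 0.87 (SE 0.52, adjusted p = 1), uses the undetected in vivo arrays at their measured values.

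The Ero1b call rested on small margins. It was lost when any of the 3 B6 HTF arrays was left out (adjusted p = 0.0694, 0.104 and 0.0797 for replicates 1, 2 and 3) or any of the 3 B6 in vivo arrays (0.0737, 0.0884 and 0.0635). Among the CD1 arrays, leaving out HTF replicate 1 (0.0835) or 2 (0.0633), or in vivo replicate 1 (0.0549) or 2 (0.0627), had the same effect. The difference itself stayed between 1.23 and 1.58 whichever array was left out.

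Hspa5, the Hsp70 chaperone, read 9.59, 9.23 and 9.70 in CD1 HTF and 8.82, 9.18 and 9.59 in B6 HTF. The in vivo arrays read 8.04, 7.51 and 8.95 in CD1 and 8.21, 8.13 and 8.19 in B6. The lowest HTF array of each strain thus lay above the highest in vivo array of that strain. The averaged difference was 1.18 (SE 0.27), or 2.27-fold, with an adjusted p of 0.107. By strain it was 1.34 (SE 0.39) in CD1 and 1.02 (SE 0.39) in B6.

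Dnajc3, the co-chaperone of BiP, averaged 9.40 ± 0.42 in CD1 HTF and 9.57 ± 0.23 in B6 HTF, against 8.27 ± 0.74 in CD1 in vivo and 8.59 ± 1.18 in B6 in vivo (SD, n = 3 each). The difference of 1.06 (SE 0.44, adjusted p = 0.518) came with overlapping arrays in both strains. Among its in vivo arrays the lowest, B6 replicate 3, read 7.26 and the highest, B6 replicate 1, read 9.53.

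Hsp90b1, the Hsp90 chaperone, had its tightest groups in HTF, at 13.99, 14.02 and 13.97 in CD1 and 14.01, 13.88 and 13.97 in B6. In vivo it read 12.80, 13.32 and 13.89 in CD1 and 13.54, 13.58 and 12.66 in B6. Within each strain the groups did not overlap, but the highest in vivo array, CD1 replicate 3, lay just below the CD1 HTF arrays and above 1 B6 HTF array. The averaged difference was 0.68 (SE 0.28, adjusted p = 0.518), 1.6-fold.

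Among the disulfide isomerases, Pdia6 had the largest averaged difference. It read 9.71, 10.13 and 9.85 in CD1 HTF and 8.94, 9.42 and 9.49 in B6 HTF, against 6.60, 8.73 and 9.59 in CD1 in vivo and 8.69, 8.38 and 6.77 in B6 in vivo. All HTF arrays were above the in vivo arrays of their strain, and 1 low array in each in vivo group, CD1 replicate 1 and B6 replicate 3, widened the gap. The averaged difference was 1.46 (SE 0.43), or 2.76-fold, with an adjusted p of 0.243. Without that CD1 array it was 1.04.

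Pdia3, the isomerase of the lectin cycle, and Pdia4 differed less. Pdia3 averaged 10.77 ± 0.49 in CD1 HTF and 11.91 ± 0.27 in B6 HTF, against 10.59 ± 1.67 in CD1 in vivo and 10.96 ± 0.62 in B6 in vivo (SD, n = 3 each). The B6 groups did not overlap and the CD1 groups did. The averaged difference was 0.56 (SE 0.47, adjusted p = 0.854) for Pdia3 and 0.50 (SE 0.54, adjusted p = 0.9) for Pdia4. Single CD1 in vivo arrays decided much of this. Replicate 2 was the lowest of 22 arrays for both genes, at 8.72 and 5.12. Without it the CD1 difference was -0.77 for Pdia3 and -0.83 for Pdia4, against 0.17 and 0.26 with it. Replicate 3 was high, at 11.92 for Pdia3 and at 9.16 for Pdia4, there the highest of 22 arrays. Without replicate 3 the CD1 difference was 0.83 for Pdia3 and 1.19 for Pdia4.

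Creld2 read 11.37, 11.38 and 11.63 in CD1 HTF and 12.03, 11.54 and 11.28 in B6 HTF. In vivo it read 10.98, 9.30 and 10.08 in CD1 and 11.25, 10.04 and 11.28 in B6. The CD1 groups did not overlap, and the B6 groups met at 11.28. The averaged difference was 1.05 (SE 0.29, adjusted p = 0.217), 2.07-fold. It is the only one of the 9 with a second kept probe, and the probes agreed: their levels correlated at r = 0.951 over 22 arrays that share their groups, and the second probe gave 1.22 (SE 0.27). By strain the probes gave 1.34 and 1.35 in CD1 but 0.76 and 1.08 in B6, with an SE of 0.38 to 0.41.

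Calr, the soluble lectin chaperone, was the exception in spread. It read 8.70, 8.33 and 7.42 in CD1 HTF and 8.59, 8.98 and 5.89 in B6 HTF, against 7.95, 8.17 and 4.74 in CD1 in vivo and 6.48, 7.18 and 6.68 in B6 in vivo. Its difference of 1.12 had an SE of 0.88, and its interval ran from -0.74 to 2.98 (95%). Its residual SD was at the 99.2 percentile of the genes tested, beside 35.5 to 90 for the other 8 genes. In CD1 ISM1 its 3 arrays read 5.51, 10.51 and 5.57.

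**Figure D2:**
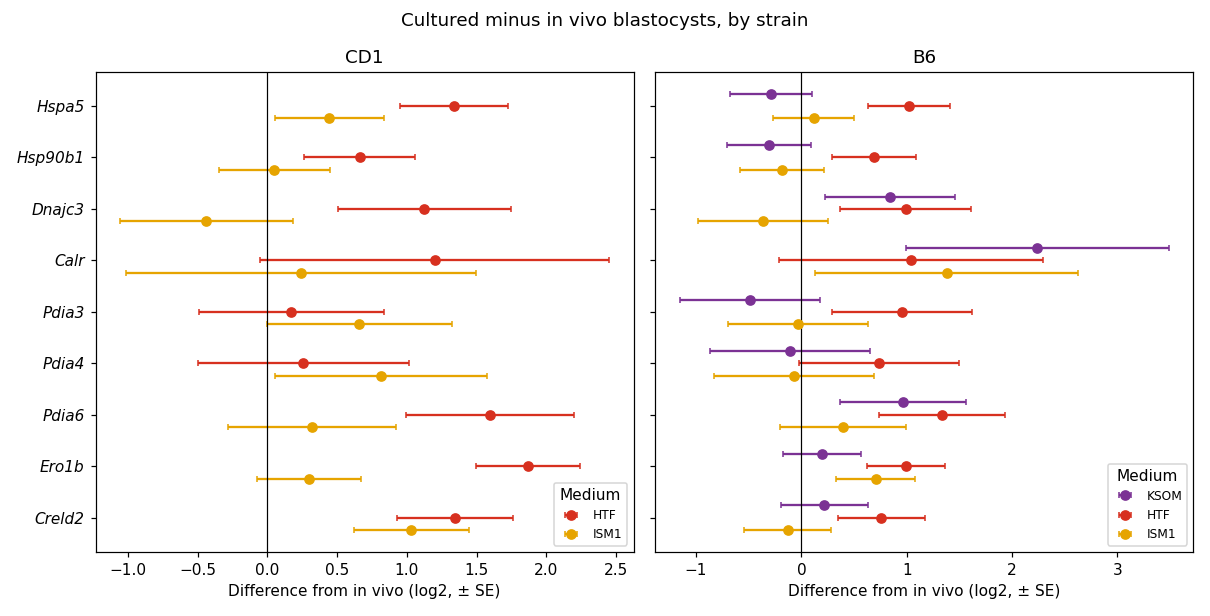
Difference of cultured from in vivo blastocysts (x axis, log2, points with ± SE bars from the fit) for each gene, in CD1 (left) and B6 (right), coloured by medium. All 9 HTF points lie above 0 in both strains, from 0.17 to 1.87 in CD1 and from 0.69 to 1.33 in B6, and Calr has the widest bars.

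Within single strains no gene of the set passed the limma test for HTF against in vivo. In CD1 the median difference was 1.2, 4 of 9 reached an unadjusted p under 0.05 (7.06% of all genes), and 5 had no overlap between groups (Hspa5, Hsp90b1, Pdia6, Ero1b and Creld2), against 6.06% of all genes higher and 4.32% lower. In B6 the median was 0.99, 3 of 9 reached that p (3.39% of all genes), and 5 had no overlap (Hspa5, Hsp90b1, Pdia3, Pdia6 and Ero1b), against 5.6% of all genes higher and 5.22% lower. The 2 strains' differences could not be separated for any of the 9: the interaction had adjusted p = 1 throughout, 0 of 9 had an unadjusted p under 0.05 (1.99% of all genes did), and its SE was 0.52 to 1.77.

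ISM1 against in vivo gave smaller values. The median over the 9 genes was 0.36, beside 0.01 over all genes, with 7 above 0 and 2 below. None passed the limma test, 0 of 9 had an unadjusted p under 0.05 (3.29% of all genes did), and none was free of overlap in both strains, where 0.193% of all genes were higher and 0.161% lower. The averaged values ran from -0.40 for Dnajc3 (SE 0.44) to 0.81 for Calr (SE 0.88), with Creld2 at 0.45 (SE 0.29). Creld2 differed by 1.03 (SE 0.41, adjusted p = 0.971) in CD1 and by -0.13 (SE 0.41) in B6, and the difference between these was 1.16 (SE 0.58, adjusted p = 0.999). In CD1 alone it was the 1 gene of 9 with an unadjusted p under 0.05, against 5.04% of all genes, and 0 of 9 were free of overlap, against 2.66% of all genes higher and 2.54% lower. For Ero1b the B6 ISM1 arrays, at 5.56, 5.02 and 5.88, all lay above the B6 in vivo arrays, although replicate 2 of ISM1 and all 3 in vivo arrays were undetected, 1 of 9 genes against 4.55% of all genes higher and 3.73% lower. With the undetected in vivo arrays at their lowest detected signal, its means differed by at least 1.1-fold. The interval of its measured difference ran from -0.08 to 1.48 (95%) and so included 0. In B6, 0 of 9 genes had an unadjusted p under 0.05 (1.19% of all genes did).

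HTF and ISM1 were also compared directly, with no in vivo array involved. Averaged over the strains, 9 of 9 genes had higher values in HTF, with a median of 0.74 beside 0.01 for all genes. None passed the limma test (0.0963% of all genes were called, 0.0749% higher and 0.0214% lower), 5 of 9 had an unadjusted p under 0.05 against 5.41% of all genes, and Hspa5 and Hsp90b1 had no overlap in either strain, 2 of 9 against 1.19% of all genes higher and 0.717% lower. The values were 1.46 (SE 0.44) for Dnajc3, 1.11 (SE 0.43) for Pdia6, 0.93 (SE 0.26) for Ero1b, 0.90 (SE 0.27) for Hspa5, 0.74 (SE 0.28) for Hsp90b1 and 0.60 (SE 0.29) for Creld2. Calr, Pdia3 and Pdia4 were at 0.31, 0.25 and 0.13 with SEs of 0.88, 0.47 and 0.54. By strain, 8 of 9 genes had higher values in HTF in B6 (49.4% of all genes), with Calr at -0.34. In CD1 they were 7 of 9 (52.4% of all genes), with Pdia3 at -0.49 and Pdia4 at -0.55. The Ero1b difference was 1.57 (SE 0.37) in CD1 and 0.29 (SE 0.37) in B6. Dnajc3 was lowest of the 8 groups in CD1 ISM1, at 7.84 ± 1.04 (SD, n = 3), and Hspa5 read 8.31, 8.42 and 9.11 there, all below the CD1 HTF arrays.

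KSOM was replicated in B6 only. Against B6 in vivo, the 9 genes had a median of 0.20, none passed (limma; 0 of 9 also at an unadjusted p under 0.05, against 5.92% of all genes), and Calr and Pdia6 had no overlap, 2 of 9 against 4.78% of all genes higher and 3.4% lower. Calr read 10.99, 7.81 and 8.26 in B6 KSOM against 6.48, 7.18 and 6.68 in B6 in vivo, a difference of 2.24 (SE 1.25, adjusted p = 0.834). Pdia6 read 8.78, 9.18 and 8.76 in B6 KSOM, a difference of 0.97 (SE 0.60, adjusted p = 0.871).

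Set against B6 HTF, the B6 KSOM arrays had lower values for 8 of the 9 genes, with a median of -0.79 beside 0.01 for all genes. None passed the limma test (0.0107% of all genes were called lower), while 4 of 9 had an unadjusted p under 0.05 against 9.53% of all genes. Hspa5 and Ero1b did not overlap, 2 of 9 against 6.28% of all genes. Hspa5 read 7.43, 8.53 and 7.70 in B6 KSOM, a difference of -1.31 (SE 0.39, adjusted p = 0.445) from B6 HTF. Ero1b was detected on no B6 KSOM array (4.96, 5.07 and 4.92). With these arrays at their lowest detected signal, its mean was at least 1.22-fold lower there. The interval of its measured difference ran from -1.57 to -0.01 (95%). Pdia3 differed by -1.45 (SE 0.66) and Hsp90b1 by -1.0 (SE 0.40), each with 1 B6 KSOM array, replicate 2, at 11.80 and 13.88 beside the HTF arrays. Calr, at 1.2 (SE 1.25), was the gene with the higher value in KSOM. These comparisons and those with in vivo growth share arrays, so they are not independent of each other.

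Of the 7 groups with 3 arrays, ordered by mean level, CD1 HTF was first and B6 HTF second for Hspa5 (9.51 ± 0.25 and 9.20 ± 0.39), Hsp90b1 (13.997 ± 0.025 and 13.95 ± 0.07) and Pdia6 (9.90 ± 0.22 and 9.28 ± 0.30; SD, n = 3 each). For Hspa5 and Hsp90b1 these 2 groups differed by less than their spread, the step to the third group exceeded the larger SD of its neighbours, and no later step did. For Pdia6 the steps after the first and after the second group both exceeded it. For Ero1b only the step below CD1 HTF (6.92 ± 0.68) and that between B6 KSOM and B6 in vivo, both undetected, did so. B6 HTF was first for Pdia3, Pdia4, Dnajc3 and Creld2, and of these only the Pdia3 step from first to second exceeded the larger SD. For Calr no step did, with B6 KSOM first at 9.02 ± 1.72 and B6 in vivo last at 6.78 ± 0.36.

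In vivo, CD1 against B6 gave a median of -0.01, with 4 genes above 0 and 5 below, and SEs of 0.37 to 1.25. None passed limma, with 0 of 9 at an unadjusted p under 0.05 (9.61% of all genes) and none free of overlap (5.14% of all genes were higher and 5.23% lower). That median was -0.86 under median scaling of the arrays, beside -0.49 over all genes, with 1 gene called, and 0.43 with the array's median intensity as a covariate. In HTF the median was 0.04 and none passed limma, with 1 of 9, Ero1b, at an unadjusted p under 0.05 (2.51% of all genes). Ero1b at 1.15 (SE 0.37) and Pdia6 at 0.62 (SE 0.60) were higher in CD1 without overlap, 2 of 9 against 8.15% of all genes. Pdia3 at -1.15 (SE 0.66) was lower in CD1 without overlap, 1 of 9 against 5.41%. Their adjusted p was 1 for all 3. In ISM1 the median was 0.31, with none passing limma, 0 of 9 at an unadjusted p under 0.05 (2.49% of all genes) and none free of overlap against 3.77% of all genes higher and 4.24% lower.

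Within groups the 9 genes did not vary as one. Over 21 arrays in groups of 3, with group means removed, Pdia3 and Pdia4 deviated together (r = 0.827), as did Hsp90b1 and Pdia6 (0.761) and Hspa5 and Pdia3 (0.698). Calr deviated against Pdia3 (-0.497) and Hspa5 (-0.49), and Creld2 against Pdia6 (-0.607). These r values are descriptions over 1 set of arrays and carry no test.

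Part of this variation moved with cell type markers. The mean level of the 4 measured primitive endoderm markers (Gata4, Gata6, Sox17 and Pdgfra) was 9.06 to 9.33 on the CD1 HTF arrays and 8.68 to 9.51 on the B6 HTF arrays. It ran from 6.92 to 10.38 in CD1 in vivo, and in B6 in vivo it was 7.26 on replicate 3 and at least 9.50 on the other arrays. It also spread in ISM1, with 7.58 and 8.15 on 2 CD1 arrays and 9.998 on the third, and from 7.94 to 9.78 in B6. Within groups this mean correlated with Pdia6 at r = 0.879, with Dnajc3 at 0.724, with Hsp90b1 at 0.704 and with Ero1b at 0.626, beside a median of 0.01 over all genes (n = 21 arrays). With the trophectoderm markers the values were 0.799, 0.732, 0.699 and 0.572 for Pdia6, Dnajc3, Hsp90b1 and Ero1b in that order. Creld2 ran the other way, at -0.789 with primitive endoderm markers, -0.746 with trophectoderm markers and 0.787 with inner cell mass markers. Hspa5 followed neither the primitive endoderm (0.101) nor the trophectoderm markers (0.0152). The 2 arrays lowest in primitive endoderm markers, CD1 in vivo replicate 1 at 6.92 and B6 in vivo replicate 3 at 7.26, were also the 2 lowest in Pdia6. They were low in trophectoderm markers as well, at 9.91 and 9.80, and each was the dimmest array of its group. Their median raw intensities were 90.6 and 127. The other arrays of these groups read 109 and 112 in CD1 and 149 in B6. In CD1 ISM1 the order of the arrays by intensity was also their order by primitive endoderm marker mean. In B6 KSOM the dimmest array had the lowest such mean, but the brightest did not have the highest. In both HTF groups the brightest array had the lowest such mean. The B6 ISM1 arrays were alike in intensity (142 to 146) while the markers differed. The part of signal level in these correlations was not tested. CD1 in vivo replicate 1 had, at 7.04, a mean of Muc1 and Ovgp1 that was 4.94 and 5.01 on the other arrays of its group. Hba-a1 read 4.56 to 4.74 in B6 HTF and 5.22 to 7.24 in B6 in vivo. The part of these last markers in the results was not tested.

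The group means of the primitive endoderm markers were close between HTF and in vivo, at 9.23 and 9.14 in CD1 and at 9.06 and 8.92 in B6. The single markers moved in opposite directions under this mean. Averaged over the strains, HTF differed from in vivo by 1.15 for Pdgfra, 0.25 for Gata6, -0.16 for Gata4 (detected on 9 arrays) and -0.80 for Sox17, none of them called. In a fit that takes the array's primitive endoderm marker mean as a covariate, an alternative chosen after these values were seen, the differences of HTF from in vivo moved by at most 0.07, and the errors of Pdia6, Ero1b and Creld2 were smaller. Pdia6 was then at 1.39 (SE 0.23, adjusted p = 0.00531), Ero1b at 1.40 (SE 0.22, adjusted p = 0.00423), Creld2 at 1.09 (SE 0.21, adjusted p = 0.0128) and Hspa5 at 1.18 (SE 0.27, adjusted p = 0.0389). Thus 4 of 9 were called in that fit, beside 151 of all 9345 genes. For Hspa5 the unadjusted p (limma) was 0.000478 there and 0.000446 without the covariate. Its lower adjusted p thus came from the p values of other genes. The covariate was chosen after its within-group correlations with Pdia6, Ero1b and Creld2 had been seen. Such correlations lower the errors of these genes, so the calls in that fit are no independent support. Between HTF and ISM1 the marker means lay further apart, at 9.23 and 8.58 in CD1 and at 9.06 and 8.64 in B6. Averaged over the strains, Pdgfra differed most between these media, by 1.73, beside 0.47 for Sox17, 0.09 for Gata6 and -0.15 for Gata4. In HTF against ISM1 none of the 9 was called in that fit. Dnajc3 was at 1.18 there (SE 0.32, adjusted p = 0.186), against 1.46 without the covariate, and Pdia6 at 0.78 (SE 0.24, adjusted p = 0.269), against 1.11.

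**Figure D3:**
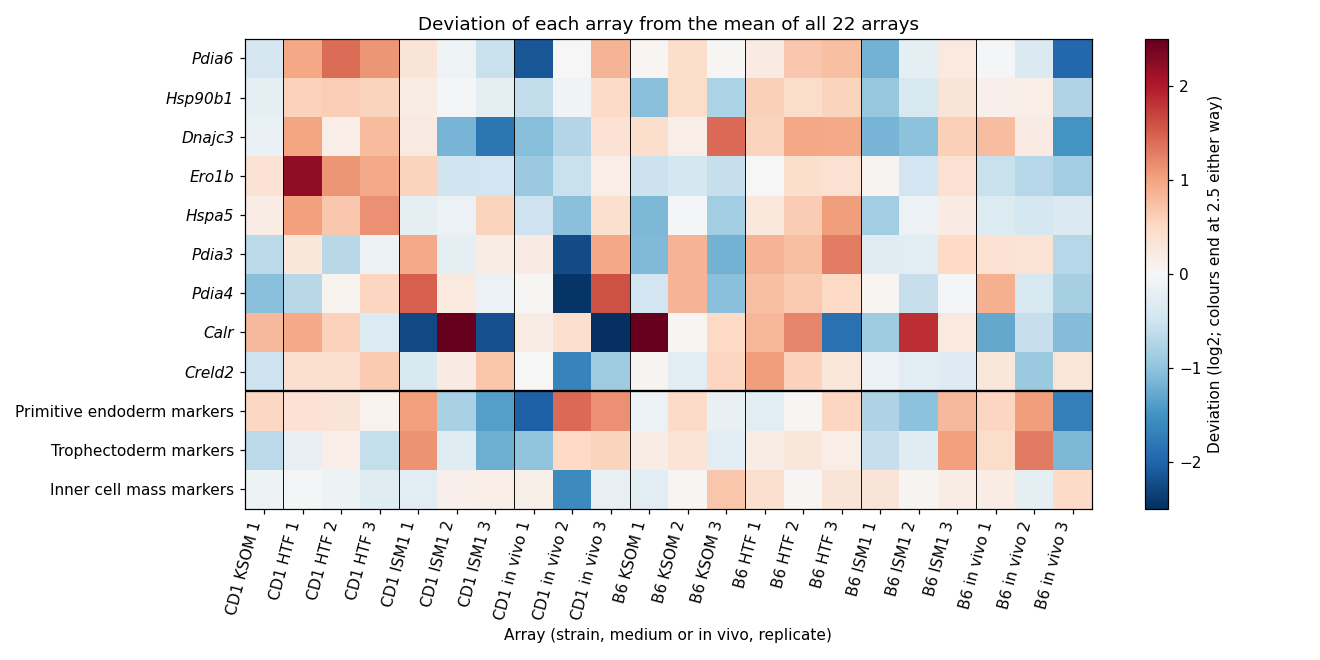
Deviation (colour, log2) of each array (columns, by strain, medium and replicate) from the mean of all 22 arrays, for the 9 genes and, below the line, for the mean level of 3 sets of lineage markers. The HTF columns are mostly red for the 9 genes and pale for the markers, and CD1 in vivo 1 and B6 in vivo 3 are blue for Pdia6 and for primitive endoderm markers alike.

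Over all 22 arrays, the genes whose pattern was most like that of Hspa5, by Pearson correlation among 9344 genes, were Cd28 (r = 0.85), Pgrmc1 (0.846), Asah1 (0.835), Naa20 (0.806) and Cnot7 (0.793). Hsp90b1 was seventh in that order at 0.771 and Ero1b 34th at 0.709. Pdia6 (0.581) and Pdia3 (0.552) were at the 97.6 and 96.6 percentiles, Creld2 and Pdia4 at 91.3 and 88.8, Dnajc3 at 82.5 and Calr, with -0.223, at 24.4.

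The rest of the folding machinery was read from 5 lists by role, of which 56 genes were measured. Of the 16 other chaperones listed, Hyou1, Sdf2l1, Dnajb11, Dnajc1, Manf, Ppib, Fkbp7 and Fkbp10 were not measured. Others not measured included the oxidase Ero1a, the sensors Atf6 and Ern1, and Edem1, Derl1 and Derl3. The values below do not cover these genes. In HTF against in vivo, averaged over the strains, 42 of these 56 were above 0, where 51.4% of all genes were, and their median was 0.19. Creld1, a relative of Creld2, was called, 1 of 56 beside 0.203% of all genes called in either direction, and 7 of 56 had an unadjusted p under 0.05, beside 8.25% of all genes. By role the median was 0.36 for 11 other oxidoreductases, 0.33 for 11 sensors and regulators, 0.16 for 8 other chaperones, 0.12 for 13 genes of translocation and 0.09 for 13 of glycan handling and degradation. In ISM1 against in vivo the 56 had a median of 0.02, none was called by limma, and 2 of 56 had an unadjusted p under 0.05, near the 3.29% of all genes.

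Creld1 read 8.65, 8.46 and 8.41 in CD1 HTF and 8.04, 8.87 and 8.39 in B6 HTF, against 5.16, 7.63 and 6.70 in CD1 in vivo and 6.80, 6.97 and 5.91 in B6 in vivo. No HTF array overlapped the in vivo arrays, and the averaged difference was 1.94 (SE 0.39, adjusted p = 0.0465). The call was lost under 20 of 35 alternatives, among them the omission of any of the 6 HTF arrays (adjusted p = 0.0964 to 0.162), of any B6 in vivo array (0.091 to 0.11) and of CD1 in vivo replicate 1 (0.0619). It was also lost without B6 KSOM replicate 2 (0.0617), CD1 ISM1 replicate 2 (0.0631) and B6 ISM1 replicates 1 to 3 (0.0646 to 0.0739), which bear on the pooled spread only. Against ISM1 the difference was 1.91 (SE 0.39, adjusted p = 0.0988).

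Xbp1, the transcription factor of the response, read 11.82, 11.42 and 11.27 in CD1 HTF and 10.95, 11.58 and 12.15 in B6 HTF, against 10.44, 10.95 and 10.70 in CD1 in vivo and 10.64, 10.81 and 9.72 in B6 in vivo. The groups did not overlap in either strain, and the difference was 0.99 (SE 0.28, adjusted p = 0.232). Wfs1, an endoplasmic reticulum membrane protein that restrains stress signalling, was at 1.13 (SE 0.44, adjusted p = 0.486). In translocation, Srprb, a subunit of the signal recognition particle receptor, was at 0.96 (SE 0.65) and Ssr2, a subunit of the translocon-associated complex, at 0.57 (SE 0.50). Of the other isomerases and chaperones, Txndc5 was at 0.70 (SE 0.36), the J-domain reductase Dnajc10 at 0.51 (SE 0.39) and the calnexin relative Clgn at -0.45 (SE 0.49). The oligosaccharyltransferase subunits Ostc and Stt3a were at 0.44 (SE 0.23) and 0.43 (SE 0.60). None of these 9 passed the test, with an adjusted p of 0.232 to 0.926.

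**Figure D4:**
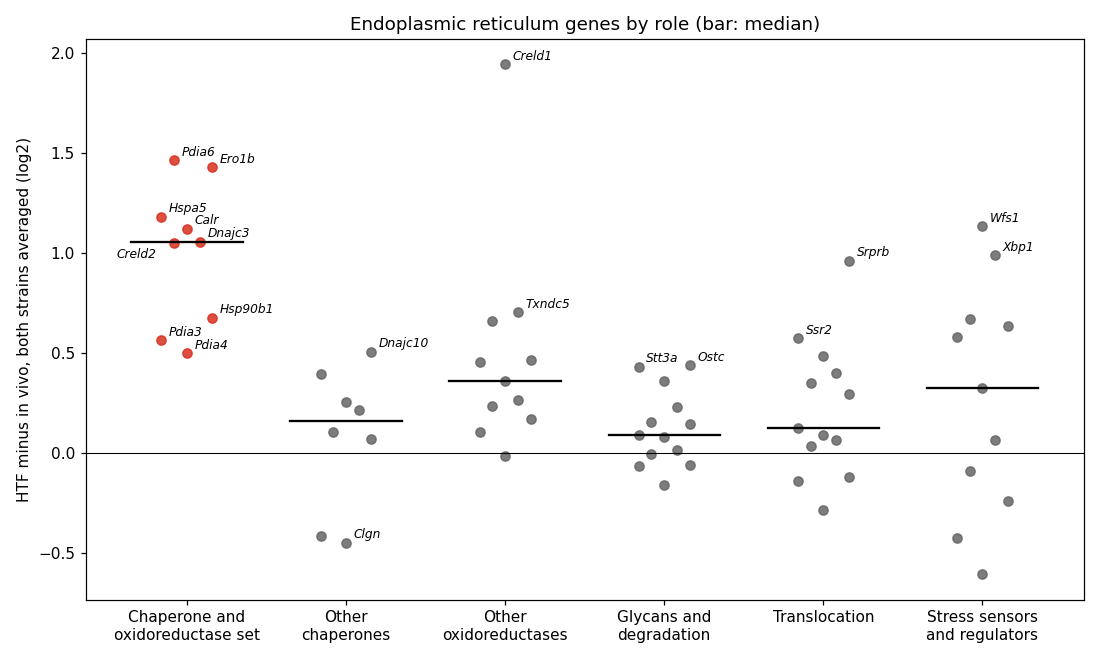
Difference of HTF from in vivo, averaged over the strains (y axis, log2), for the 9 chaperones and oxidoreductases (red) and 56 other endoplasmic reticulum genes by role (grey); points are genes, bars are medians, and named grey points are those the text gives. The red points lie between 0.50 and 1.46, above most grey points, with Creld1 the highest of all at 1.94.

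Beyond the set, 5 tested genes had the ERSE motif in their promoter window: Calr4, Spats2l, Syvn1, Alg12 and Pan2. Syvn1 is a ubiquitin ligase of endoplasmic reticulum degradation, and Alg12, a mannosyltransferase of glycan synthesis, shares its match with Creld2. All 5 were above 0 in HTF against in vivo, at 1.32, 1.00, 0.64, 0.30 and 0.27 in that order, with a median of 0.64. None passed the test or was free of overlap in both strains. The 7 measured genes of the set with a match had a median of 1.12, but they were chosen with earlier results of these data known. Over 7654 tested genes with a promoter window the median was 0.02, and 51.9% were above 0. A link between the motif and the difference was not tested.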

How the data were processed

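Total RNA (150 ng, 12 h of in vitro transcription, per the labels' protocols) was hybridised to Illumina bead arrays. The authors deposited non-normalized probe intensities with detection p-values, per the file headers, and a table of log2 values. Per the submitters' processing notes BeadStudio 3.2, RMA and lumi were used, in an order not given in the sources used here. The deposited log2 values have a median of 3.61, their exact scaling is not stated, and they served as an alternative only. Intensities were background-corrected and quantile-normalized with neqc (limma 3.58.1, R 4.3.3, offset 16), with detection p-values standing in for negative controls. Each detection column was taken as that of the intensity column before it (absolute Spearman correlation of at least 0.982).

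Of 25697 probes, 23978 have 1 annotated symbol and 1719 have none. A filter on detection (p under 0.05 on 3 or more arrays) left 12992 probes, and the remaining probe with the highest mean stood for each of 9345 genes. limma fitted 8 group means (lmFit and eBayes, 14 residual and 3.51 prior degrees of freedom), and a call is a Benjamini-Hochberg adjusted p under 0.05 over all genes, the adjusted p given throughout. The median SE of a difference between groups of 3 was 0.43, and the number of arrays limits the precision. An Ero1b bound sets each undetected array of the dimmer groups to the lowest signal detected on it. It bounds the difference of the group means and holds no sampling error. On simulated data with 100 genes changed per size, 41 at log2 1 and 87 at log2 2 were recovered for HTF against in vivo over the strains, with 9 false calls, and 11 and 56 for B6 HTF against in vivo, with 8.

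The genes and lists were chosen with earlier results of these data known. All members were described, and of the other lists the called genes and the 2 per role with the largest difference were named. Of 12 pairs of groups checked, CD1 HTF and CD1 ISM1 were the pair in which all same-numbered arrays deviated together at r over 0.1 (0.177 to 0.213), and there the replicate block changed the count of genes called to 0, against 4 without it, and of the 9 genes none was called either way. The alternatives were other background, scaling, filter, weighting, covariate and sample choices, including 2 added after the data were seen.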

Additional observations from a re-analysis of the deposited data

Results flagged for a closer look

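The single CD1 KSOM array enters no test above. On it Calr read 8.58, above all 3 CD1 in vivo arrays, the highest of which read 8.17, and Ero1b read 5.86, detected and above the highest CD1 in vivo array at 5.66. The other 7 measured genes lay within the range of the CD1 in vivo arrays there. With 1 array there is no spread and no test.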

How the results depend on the processing

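Every measured gene of the 9 kept the sign of its difference for HTF against in vivo, averaged over strains, under all 35 alternatives except Pdia4, which was -0.064 with array quality weights and -0.045 to 0.96 over the arrays left out. The median over the 9 ran from 0.90 to 1.37. The Ero1b call was lost under 13 of 35 (adjusted p = 0.00423 to 0.104), and 0 members were called at offset 50 and on the compared arrays alone. Hspa5 was called under 4 and Creld2 under 4. Median scaling moved the median of all genes to 0.20 for HTF against in vivo, 0.46 in CD1 and -0.49 for CD1 against B6 in vivo. The causes were not tested. Low signal limits Ero1b and Canx.

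Counts follow as genes called, or members called where so named, in the order HTF against in vivo over strains (19 genes, 1 member), ISM1 against in vivo (0), HTF against ISM1 (9), B6 HTF (1), CD1 HTF (1) and B6 KSOM (0) against in vivo, CD1 HTF against ISM1 (4), B6 KSOM against HTF (1) and against ISM1 (0), B6 HTF against ISM1 (0), and CD1 against B6 in vivo (1), in HTF (1) and in ISM1 (1). The RMA-style background gave 2 for B6 HTF and 2 for CD1 HTF. The authors' deposited values gave 5 for HTF against ISM1, 0 for B6 HTF, 2 for B6 KSOM against in vivo, 1 for CD1 HTF against ISM1, 0 for B6 KSOM against HTF and 0 other endoplasmic reticulum genes. A detection p under 0.01 gave 1 for B6 KSOM against in vivo and 1 for CD1 HTF against ISM1. Every kept probe gave 0 other endoplasmic reticulum genes, 0 for CD1 HTF, 2 for B6 KSOM against in vivo and 1 for CD1 HTF against ISM1. No filter gave 0 other endoplasmic reticulum genes, 1 for ISM1 against in vivo, 3 for B6 HTF, 4 for CD1 HTF, 7 for CD1 HTF against ISM1, 3 for B6 KSOM against ISM1 and 2 for CD1 against B6 in HTF. Offset 50 gave 1 for ISM1, 4 for B6 HTF, 0 for CD1 HTF, 1 for B6 HTF against ISM1 and 1 for B6 KSOM against ISM1. The trended robust prior gave 0 other endoplasmic reticulum genes, 2 for B6 HTF, 0 for CD1 HTF and 2 for B6 KSOM against in vivo. The replicate block gave 0 for B6 HTF, 0 for CD1 HTF and 0 for CD1 HTF against ISM1, left Ero1b called (adjusted p = 0.0494) and changed no other call of the 9 genes.

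Median scaling gave 3 members (Ero1b, Hspa5 and Creld2) for HTF, where the median over all genes was itself 0.20. It gave 3 genes for B6 HTF, 5 genes, 2 members and a median of 1.85 for CD1 HTF, 2 for B6 KSOM against in vivo, 1 for CD1 HTF against ISM1, 1 for B6 KSOM against ISM1, 582 genes, 1 member and a median of -0.86 for CD1 against B6 in vivo, 2 for CD1 against B6 in HTF, a median of -0.18 for CD1 against B6 in ISM1 and 0.79 for the difference between strains in the HTF effect. The log2 median intensity as a covariate gave 29 for HTF, 1 for ISM1, 0 for CD1 HTF with Pdia3 at -0.019 and Pdia4 at -0.35, 2 for B6 KSOM against in vivo, 1 for CD1 HTF against ISM1, 2 for B6 KSOM against ISM1 and a median of 0.43 for CD1 against B6 in vivo. The compared arrays alone gave 10 for HTF with 0 members and 0 other endoplasmic reticulum genes, 0 for B6 HTF, CD1 HTF, CD1 HTF against ISM1, B6 KSOM against HTF, and CD1 against B6 in vivo and in ISM1, and 3 in HTF.

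Array quality weights gave 165 genes, 3 members and 2 other endoplasmic reticulum genes for HTF, 1 gene and a median of -0.18 for ISM1, and 315 genes and 5 members for HTF against ISM1, with Calr at -0.26. They gave 1159 genes, 2 members and a median of 0.55 for B6 HTF, with Pdia4 at -0.024, and 0 genes for CD1 HTF, with Pdia3 at -0.22 and Pdia4 at -0.10. They gave 1329 genes, 1 member and a median of -0.40 for B6 ISM1 against in vivo, 423 for B6 KSOM against in vivo, 669 genes and 5 members for B6 HTF against ISM1, 221 genes and 1 member for B6 KSOM against HTF, and 555 for B6 KSOM against ISM1. For CD1 against B6 they gave 0 in vivo, 84 in HTF and 3 in ISM1.

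The 2 alternatives chosen after seeing the data moved calls as well. The primitive endoderm covariate gave 151 genes, 4 members and 3 other endoplasmic reticulum genes for HTF, 23 for HTF against ISM1, 12 for B6 HTF, 8 genes and 1 member for CD1 HTF, 4 for B6 KSOM against in vivo, 2 for B6 KSOM against HTF, 14 for B6 KSOM against ISM1 and 2 for CD1 against B6 in vivo. Without the 3 dimmest arrays there were 38 for HTF with Creld2 in place of Ero1b among them, 3 for B6 HTF, 10 genes and a median of 0.84 for CD1 HTF, 0 for B6 KSOM against HTF and 14 for CD1 against B6 in vivo, with Calr at -0.098 and Pdia4 at -0.039 in HTF against ISM1.

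Leaving out 1 array at a time gave 5 to 56 genes, 0 to 2 members and 0 to 1 other endoplasmic reticulum genes for HTF, 0 to 1 for ISM1, 4 to 11 for HTF against ISM1, 0 to 3 for B6 HTF, 0 to 29 genes and 0 to 1 members for CD1 HTF, 0 to 5 for CD1 ISM1 against in vivo, 0 to 35 for B6 KSOM against in vivo, 0 to 5 for CD1 HTF against ISM1, 0 to 129 for B6 KSOM against HTF, 0 to 296 for B6 KSOM against ISM1, and 1 to 25, 1 to 2 and 1 to 3 for CD1 against B6 in vivo, in HTF and in ISM1. Medians ran from -0.55 to 0.21 for B6 KSOM against ISM1, -0.15 to 0.39 for B6 KSOM against in vivo, 0.84 to 1.36 for CD1 HTF, 0.12 to 0.84 for CD1 ISM1, -0.40 to 0.16 for CD1 against B6 in vivo, and -0.15 to 0.55 and -0.20 to 0.57 for the differences between strains in the HTF and ISM1 effects. Signs turned for Dnajc3 in B6 KSOM against HTF (-0.52 to 0.11), Pdia3 (-0.77 to 0.83) and Pdia4 (-0.83 to 1.19) in CD1 HTF, Calr (-0.11 to 1.14) and Pdia4 (-0.039 to 0.37) in HTF against ISM1, and Clgn (-0.73 to 0.089) and Ssr2 (-0.067 to 0.91) in HTF.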
